A study of Mus musculus with 2 samples.

Results

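The genes of the interleukin-18 and inflammasome system followed here in tumor mononuclear phagocytes were the cytokine Il18, its soluble inhibitor Il18bp, the caspases Casp1 and Casp4, the pore-forming Gsdmd, the sensors Nlrp3 and Aim2 and the adaptor Pycard. They were picked by symbol, and all 8 of 8 members were listed among the 27998 genes of both count matrices. The cells came from tumors of B16, a transplantable mouse melanoma line, grown in C57Bl/6 mice. They were sorted as MerTk+ CD64+ cells and captured for single-cell RNA sequencing of transcript 3′ ends. There were 2 libraries, 1 from Fcmr+/+ mice and 1 from Fcmr-/- mice, which lack Fcmr, the Fc receptor for IgM, in every cell and not only in phagocytes. Both groups carried the same tumor line, and the labels name no further agent. The age of the mice and the number pooled in a library were not given in the sources used here. With 1 library per genotype there was no replicate check and no test of the genotype was possible. Intervals below are 95% intervals for counting error only.

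IL-18 is made as a precursor without a secretion signal. Inflammasomes are protein platforms that form when a sensor such as NLRP3 or AIM2 recruits the adaptor ASC, the product of Pycard, which in turn activates caspase-1. Caspase-1 cleaves pro-IL-18 and pro-IL-1β, and it also cleaves gasdermin D, whose released fragment opens pores in the plasma membrane. Caspase-11, the product of Casp4, binds cytosolic lipopolysaccharide and cleaves gasdermin D directly. Secreted IL-18 drives T and NK cells to make interferon gamma. IL-18 binding protein captures free IL-18 and is known as an interferon gamma-induced gene, so that it closes a feedback loop. RNA levels say nothing of cleavage or secretion.

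After filtering, 6352 Fcmr+/+ and 7999 Fcmr-/- cells remained, with medians of 17973.5 and 12911 unique molecular identifiers (UMIs) per cell and summed totals of 128408544 and 124630621 UMIs. Fcmr itself had 7 UMIs in the Fcmr+/+ library and 6 in the Fcmr-/- library, so the deletion could not be checked in these cells. All 9 macrophage markers were detected in both libraries, at a summed 6766 and 6875 CPM (counts per 1000000 UMIs), Mertk and Fcgr1, which encodes CD64, among them. Barcodes found in both libraries numbered 73. Markers of other cell types were present to different degrees. The dendritic cell list summed to 145 CPM in Fcmr+/+ and 119 CPM in Fcmr-/- cells, with 2 or more of its UMIs in 40.6% and 28.2% of cells, and macrophages can share some of its genes. The melanoma list was at 40.6 and 64.1 CPM (17.3% and 19.7% of cells), the neutrophil list at 32.2 and 50.1 CPM (13.4% and 14.5%) and the endothelial list at 9.54 and 16.2 CPM (2.96% and 4.60%). Leaving out the cells of any of these lists kept Il18bp and Casp1 past 1.5-fold higher. The 9 T or NK cell genes summed to 2.60 CPM in Fcmr+/+ cells, with Ncr1 at 0, and to 19.4 CPM in Fcmr-/- cells, with none at 0. The keratinocyte genes Krt14, Krt5, Krt1 and Dsp were at 0 in both libraries.

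The members lie on 5 mouse chromosomes in GRCm38, by the GENCODE annotation. Casp1 (chr9:5298517-5307265) and Casp4 (chr9:5308828-5336783) are neighbors on the plus strand, and Il18 (chr9:50554827-50581840) lies on the same chromosome and strand. Il18bp (chr7:102014885-102018690) and Pycard (chr7:127989708-127993867) are on the minus strand of chromosome 7. Gsdmd (chr15:75862327-75867408), Nlrp3 (chr11:59541568-59566956) and Aim2 (chr1:173350879-173466040) are on plus strands. No member overlapped a gene on its own strand. On the opposite strand, the 3′ end of Il18bp shared 80 bases with Numa1, and Il18, Aim2 and Pycard each overlapped at least 1 gene. The sources used here do not say whether counting used the strand. Numa1 itself was at 30.1 CPM in the Fcmr+/+ and 29.4 CPM in the Fcmr-/- library.

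Il18bp and Casp1 were higher in Fcmr-/- cells by more than 1.5-fold, and the other 6 members lay between 1.27-fold higher and 0.829-fold. Past 1.5-fold were thus 2 of 8 members higher and 0 of 8 lower. Among the 8701 genes with at least 5 CPM in a library, 2.40% were past 1.5-fold higher and 1.69% past 1.5-fold lower. The median log2 ratio, Fcmr-/- over Fcmr+/+ with 1 CPM added to each value, was 0.18 over the members and 0.00 over those 8701 genes. Of the members, 5 lay above 0 and 3 below. The members were chosen with earlier results of these data known, so setting them beside all genes is no independent check. Counts of 3′ ends do not grow with transcript length, so levels of different genes may be set side by side within a library only as UMI counts.

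**Figure D1:**
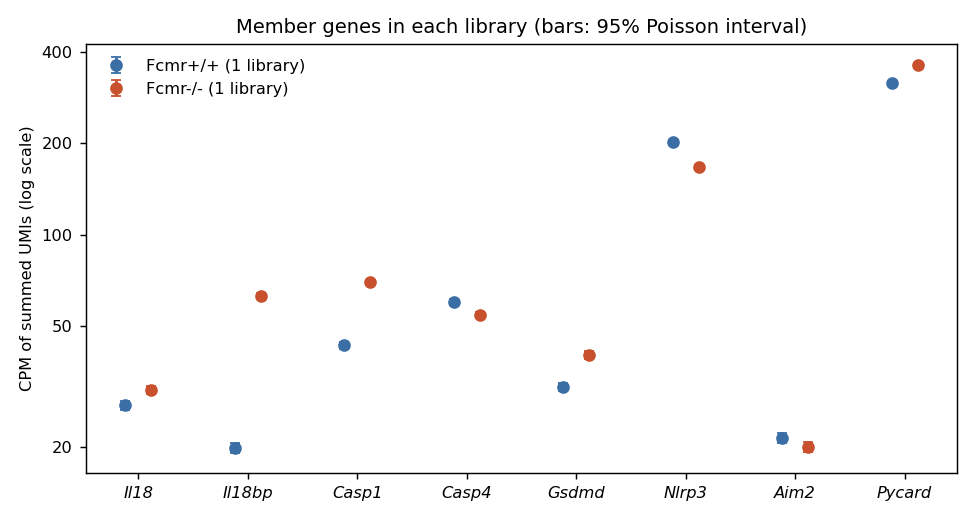
Levels of the 8 members in each library, as CPM of the UMIs summed over cells on a log axis, with 95% Poisson intervals that cover counting error only. Il18bp stands apart, at 19.8 CPM in the Fcmr+/+ and 62.9 CPM in the Fcmr-/- library, while Il18 was at 27.4 and 30.8 CPM.

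The cytokine and its inhibitor differed in how far the libraries lay apart. Il18bp was counted 2542 times in the Fcmr+/+ library and 7840 times in the Fcmr-/- library, or 19.8 CPM (19.0 to 20.6) and 62.9 CPM (61.5 to 64.3). The log2 ratio was 1.62, a 3.07-fold higher level, and ranked 29 from the highest of 8701 genes. Il18 was at 27.4 CPM (26.5 to 28.4) in Fcmr+/+ and 30.8 CPM (29.9 to 31.8) in Fcmr-/- cells, a log2 ratio of 0.16 (0.10 to 0.23 without the added CPM). Its rank was 1574. For each Il18 UMI there were therefore 0.722 Il18bp UMIs in the Fcmr+/+ library and 2.04 in the Fcmr-/- library. Summed over all cells, the order of the 2 genes was thus reversed between the libraries.

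Both the number of cells with Il18bp and the UMIs per such cell were higher in the Fcmr-/- library. As deposited, 24.1% of Fcmr+/+ and 40.0% of Fcmr-/- cells had an Il18bp UMI, although the Fcmr+/+ cells were sequenced more deeply. After each cell was thinned to 5000 UMIs, which left out no cell, these shares were 8.71% (8.02 to 9.43) and 21.7% (20.8 to 22.6). The cells with Il18bp held 1.66 of its UMIs on average in Fcmr+/+ and 2.45 in Fcmr-/- cells, with maxima of 17 and 24. For Il18 the shares were 35.4% and 31.4% as deposited and 11.1% (10.3 to 11.9) and 12.6% (11.9 to 13.4) after thinning, so that the order of the genotypes depended on depth. The sort held no cell type known to lack these genes, so no background share from free RNA could be set beside them.

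Of the caspases, Casp1 was the member with the next largest ratio. It was at 43.3 CPM (42.2 to 44.5) in Fcmr+/+ and 69.7 CPM (68.3 to 71.2) in Fcmr-/- cells, 1.60-fold higher, and ranked 161. Casp4, the neighbor of Casp1, was at 60.1 CPM (58.8 to 61.5) and 54.5 CPM (53.2 to 55.8), a log2 ratio of -0.14. Casp1 UMIs per Casp4 UMI were 0.720 in the Fcmr+/+ library and 1.28 in the Fcmr-/- library. After thinning, Casp1 was found in 18.6% (17.7 to 19.6) of Fcmr+/+ and 26.9% (25.9 to 27.8) of Fcmr-/- cells, and Casp4 in 25.8% (24.8 to 26.9) and 24.5% (23.6 to 25.4). Gsdmd, the substrate of both enzymes, was at 31.5 CPM (30.6 to 32.5) and 40.2 CPM (39.1 to 41.3), 1.27-fold higher in Fcmr-/- cells.

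Both sensors among the members lay below 0, as did Casp4. Of the other sensors of the pathway, 8 of 10 with at least 5 CPM lay above 0, with a median log2 ratio of 0.28. Nlrp3 was at 202 CPM (199 to 204) in Fcmr+/+ and 167 CPM (165 to 169) in Fcmr-/- cells, a log2 ratio of -0.27. Aim2, the cytosolic DNA sensor, had 2747 UMIs (20.6 to 22.2 CPM) and 2492 UMIs (19.2 to 20.8 CPM), a log2 ratio of -0.09 that was 0.03 after thinning. Pycard had the most UMIs of the members in both libraries, at 315 CPM (312 to 318) and 364 CPM (360 to 367), and was found in 72.2% and 74.5% of thinned cells. The members thus differed from each other more than the libraries did, with 15.9 Pycard UMIs per Il18bp UMI in the Fcmr+/+ and 5.78 in the Fcmr-/- library.

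The cells of both libraries were grouped into 10 clusters, called states here, on variable genes from which the members were left out. State 2 was inflammatory-like (Cxcl3, Il1a, Il1b and Ptgs2 among its leading genes), state 5 hypoxic-like (Adm, Slc2a1, Ankrd37), state 7 G2 and mitosis-like (Top2a, Plk1), state 8 type I interferon-high-like (Rsad2, Ifit1, Mx1) and state 10 lipid-associated-like (Mmp12, Spp1, Gpnmb). States 3 (Ly6c2, Gbp4, Cxcl9) and 9 (Iigp1, Cxcl9, Ccl8) were both interferon gamma-high-like. State 4, with Gas6 and Cbr2 among its leading genes, was Mrc1 Folr2-high-like. State 6, with Acp5, Apoe and Itgax, was called C1q-high-like from 3 genes of that list among its 30 leading genes. Of the list, only Apoe was among the first 10. State 1, led by Ccl17, Ear2 and Mgl2, had monocyte and MHC class II markers and stays unnamed. States held between 831 and 2113 cells. States 3 and 9 held 65 and 54 Fcmr+/+ cells against 1531 and 947 Fcmr-/- cells, so their Fcmr+/+ values rest on few cells. All 10 passed the minimum of 50 cells per library.

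**Figure D2:**
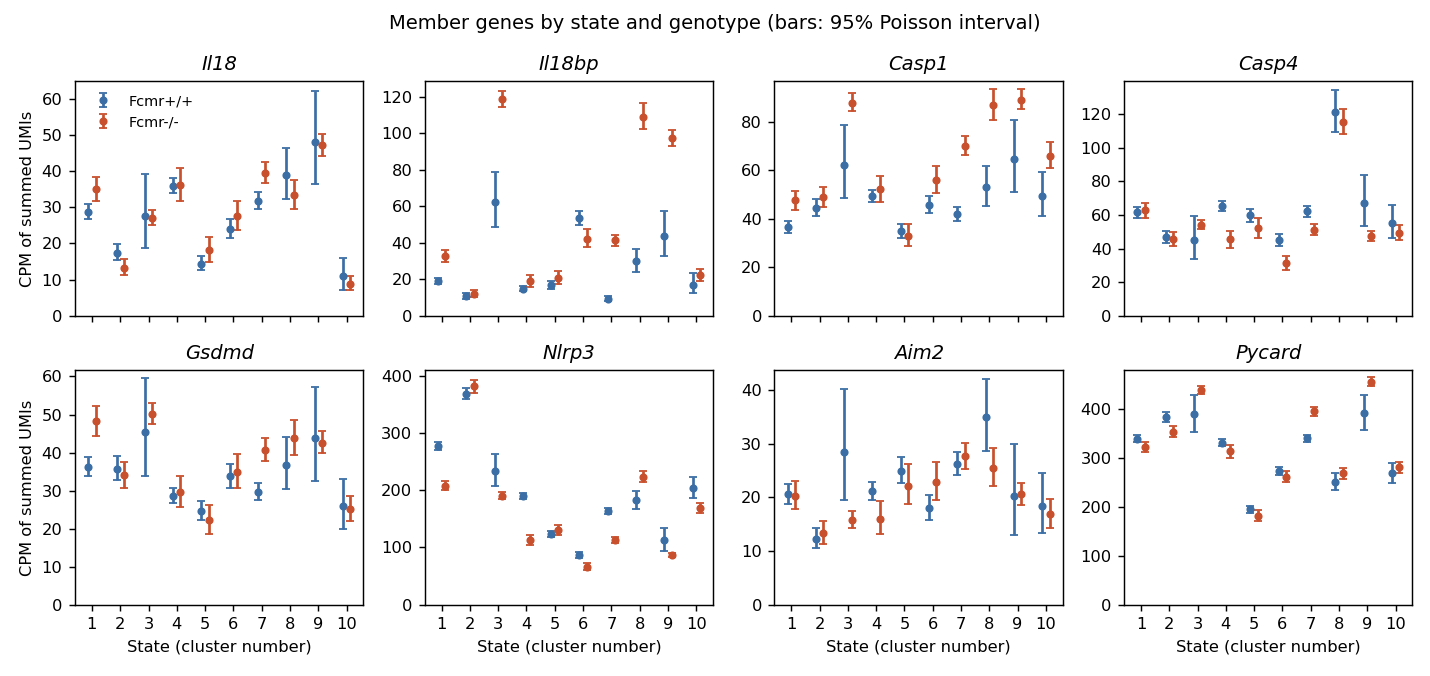
CPM of each member in the 10 states, 1 panel per gene, with Fcmr+/+ and Fcmr-/- cells side by side and 95% Poisson intervals. Nlrp3 peaks in state 2 in both libraries, Casp4 in state 8 and Il18 in state 9, while Il18bp in Fcmr-/- cells is highest in states 3, 8 and 9.

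Il18 had much the same profile over the states in both genotypes. It was highest in state 9, at 47.9 CPM (36.3 to 62.1) in Fcmr+/+ and 47.1 CPM (44.1 to 50.2) in Fcmr-/- cells, and lowest in state 10, at 10.8 CPM and 8.81 CPM. State 4 was at 35.9 and 36.0 CPM. State 2, the inflammatory-like state, and state 5, the hypoxic-like state, were low, at 17.4 and 14.4 CPM in Fcmr+/+ and 13.3 and 18.1 CPM in Fcmr-/- cells. In this order, 8 of 9 neighboring pairs of states had overlapping intervals in Fcmr+/+ cells and 6 of 9 in Fcmr-/- cells.

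Il18bp varied most over the states. In Fcmr-/- cells it was at 118 CPM (114 to 123) in state 3, 109 CPM (102 to 116) in state 8 and 97.3 CPM (93.0 to 102) in state 9, and 12.1 CPM (10.1 to 14.3) in state 2, a 9.81-fold range. In Fcmr+/+ cells the highest were state 3, at 62.3 CPM (48.5 to 78.7), and state 6, the C1q-high-like state, at 53.5 CPM (49.7 to 57.4), and the lowest was state 7, at 9.41 CPM (8.16 to 10.8). State 6 held 29.4% of all Il18bp UMIs of the Fcmr+/+ library and 3.90% of those of the Fcmr-/- library, with 10.9% and 5.81% of all UMIs. States 3, 8 and 9 together held 8.42% of the Il18bp UMIs in the Fcmr+/+ and 73.6% in the Fcmr-/- library, with 5.84% and 40.9% of the cells. After thinning, the share of Fcmr+/+ cells with Il18bp ran from 5.56% in state 7 to 24.6% in state 3, so it was not a level common to all cells. By CPM, Il18bp was above Il18 in states 3, 5, 6 and 10 of Fcmr+/+ cells only. In Fcmr-/- cells it was above Il18 in all states but 1, 2 and 4.

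Peaks of the other members lay in different states, and Casp1 and Pycard shared state 9 with Il18. Nlrp3 was at 369 CPM (359 to 379) in state 2 of the Fcmr+/+ and 381 CPM (370 to 393) of the Fcmr-/- library, and lowest in state 6, at 87.3 CPM (82.4 to 92.3) and 66.7 CPM (60.9 to 73.0). Casp4 was highest in state 8, the type I interferon-high-like state, at 121 CPM (109 to 134) and 116 CPM (108 to 123), and lowest in state 6, at 45.2 and 31.4 CPM. Casp1 was highest in state 9, at 64.7 CPM (51.1 to 80.9) and 89.3 CPM (85.2 to 93.5), and lowest in state 5, at 34.9 and 32.9 CPM. Pycard was also highest in state 9, at 392 and 456 CPM, and lowest in state 5, at 195 and 183 CPM. For both genes the intervals of states 9 and 3 overlapped in each library. In Fcmr-/- cells Casp1 was at 88.0 CPM in state 3 and 87.0 CPM in state 8. Gsdmd spanned only 1.84-fold and 2.26-fold over the states, and in its order every neighboring pair had overlapping intervals in both libraries. Aim2 was lowest in state 2 in both libraries, at 12.3 and 13.3 CPM. It was highest in state 8 of Fcmr+/+ cells, at 34.9 CPM, and in dividing state 7 of Fcmr-/- cells, at 27.7 CPM. In its order, 8 of 9 neighboring pairs had overlapping intervals in Fcmr+/+ cells and 9 of 9 in Fcmr-/- cells.

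Across the 10 states, the profile of Il18 and that of Nlrp3 had a Pearson r of -0.19 in Fcmr+/+ and -0.44 in Fcmr-/- cells. For Il18bp and Casp1 r was 0.61 and 0.80. These values describe 10 clusters that share a library and differ in depth.

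Within states the genotype ratios of Il18bp were smaller than over all cells, apart from states 7 and 8. Il18bp was higher in Fcmr-/- cells in 9 of 10 states and past 1.5-fold in 5. Of the 9, the intervals of states 2 (-0.19 to 0.50), 5 (-0.004 to 0.61) and 10 (-0.12 to 0.89) spanned 0. The log2 ratio was 2.02 in state 7 (9.41 against 41.3 CPM), 1.84 in state 8 (29.7 against 109 CPM), 1.14 in state 9, 0.92 in state 3 and 0.74 in state 1. In state 6 it was -0.33, with 53.5 CPM in Fcmr+/+ and 42.3 CPM in Fcmr-/- cells. Casp1 was higher in 9 of 10 states and past 1.5-fold in states 7 and 8, at 0.73 and 0.71. Of those 9, the intervals of states 2 (-0.03 to 0.31) and 4 (-0.09 to 0.24) spanned 0. Il18 was higher in 5 of 10 states and past 1.5-fold in 0, with log2 ratios from -0.36 in state 2 to 0.31 in state 5. Casp4 was lower in 8 of 10 states, and Nlrp3 in 7, past 1.5-fold lower in state 4 at -0.74 (190 against 113 CPM). Of the states with Casp4 lower, the intervals of states 2, 8 and 10 spanned 0. Pycard stayed between -0.12 and 0.22 in every state.

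**Figure D3:**
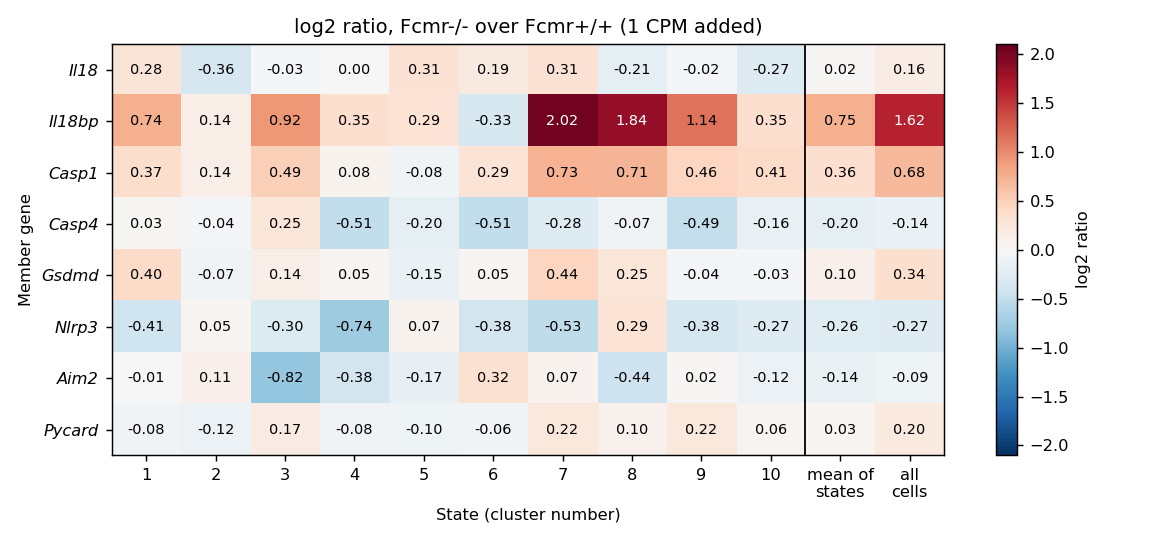
log2 ratio of each member, Fcmr-/- over Fcmr+/+ with 1 CPM added, in each of the 10 states, as the mean over states weighted equally, and over all cells. Il18bp goes from 2.02 in state 7 to -0.33 in state 6, and Il18 stays within 0.36 of 0.

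With states weighted equally, the log2 ratio was 0.75 for Il18bp, 0.36 for Casp1, 0.10 for Gsdmd, 0.03 for Pycard and 0.02 for Il18, and -0.26 for Nlrp3, -0.20 for Casp4 and -0.14 for Aim2. By that measure 1 of 8 members was past 1.5-fold higher, beside 0.988% of the 8701 genes, and 0 of 8 lower, beside 0.782%. Had the Fcmr-/- levels of each state been mixed as in the Fcmr+/+ library, Il18bp would come to 31.2 CPM, against 19.8 CPM measured in Fcmr+/+ and 62.9 CPM in Fcmr-/- cells, and Nlrp3 to 162 CPM. Without states 3, 8 and 9 the log2 ratios of Il18bp and Casp1 were 0.58 and 0.38, under 1.5-fold. The states were built from genes that themselves differ between the libraries, so the mix of states and the level within a state cannot be fully told apart.

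Interferon-induced genes were also higher in the Fcmr-/- library. The 9 genes of the interferon gamma-high list, Cxcl9 and Iigp1 among them, summed to 33.1 CPM in Fcmr+/+ and 342 CPM in Fcmr-/- cells, and Ifng itself had 1 and 41 UMIs. Their part in the Il18bp and Casp1 levels was not tested. The 11 genes of the type I interferon-high list were also higher, at 755 and 1191 CPM. In every state but 3 and 6, the interferon gamma-high list and Il18bp were both higher in Fcmr-/- cells, but not to a like degree. In states 2, 4, 5 and 10 Il18bp was only 1.10-fold to 1.28-fold higher, and its intervals in states 2, 5 and 10 spanned 0. In state 4 the interferon gamma-high list was at 19.5 and 60.8 CPM while Il18bp was at 14.7 and 19.0 CPM. In state 5 the list was at 14.5 and 38.9 CPM while Il18bp was at 16.8 and 20.8 CPM. In state 8 that list was at 125 and 282 CPM and Il18bp at 29.7 and 109 CPM. The type I list there was at 10141.5 and 7119 CPM. In state 7, where the Il18bp ratio was largest, the interferon gamma-high list was at 23.3 CPM in Fcmr+/+ and 425 CPM in Fcmr-/- cells and the type I list at 400 and 758 CPM. In state 3, with 65 Fcmr+/+ cells, the interferon gamma-high list was at 488 and 472 CPM while Il18bp was at 62.3 and 118 CPM. In state 6 the list was at 28.0 and 79.9 CPM while Il18bp was at 53.5 and 42.3 CPM. The cells were also grouped by how many UMIs of these 9 genes they held after thinning to 5000 UMIs. With 0 such UMIs, which was so for 91.6% of Fcmr+/+ and 62.7% of Fcmr-/- cells, Il18bp was at 19.1 CPM (18.3 to 19.9) and 37.8 CPM (36.4 to 39.3). With 1 it was at 19.7 CPM (16.7 to 23.0) and 65.0 CPM (61.5 to 68.5). With 2 or more it was at 56.3 CPM (47.0 to 66.8) in 119 Fcmr+/+ cells and 117 CPM (113 to 121) in 1705 Fcmr-/- cells.

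Il18bp was thus higher in the Fcmr-/- library in each of these groups, with log2 ratios of 0.95, 1.67 and 1.04. Casp1 went from 42.6 to 71.4 CPM in Fcmr+/+ and from 58.3 to 93.2 CPM in Fcmr-/- cells between 0 and 2 or more, and its ratios were 0.44, 0.66 and 0.38. The ratios of Il18 were -0.08 (-0.16 to 0.005), -0.10 (-0.31 to 0.10) and 0.25 (-0.06 to 0.60), and each interval spanned 0. Nlrp3 was at 201, 218 and 205 CPM over these groups in Fcmr+/+ cells, and went from 184 to 162 to 134 CPM in Fcmr-/- cells. The groups with 0 and with 1 hold cells with the same count of list UMIs, not the same level, since most cells had 0. The group with 2 or more is open-ended, so its cells share neither a count nor a level.

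**Figure D4:**
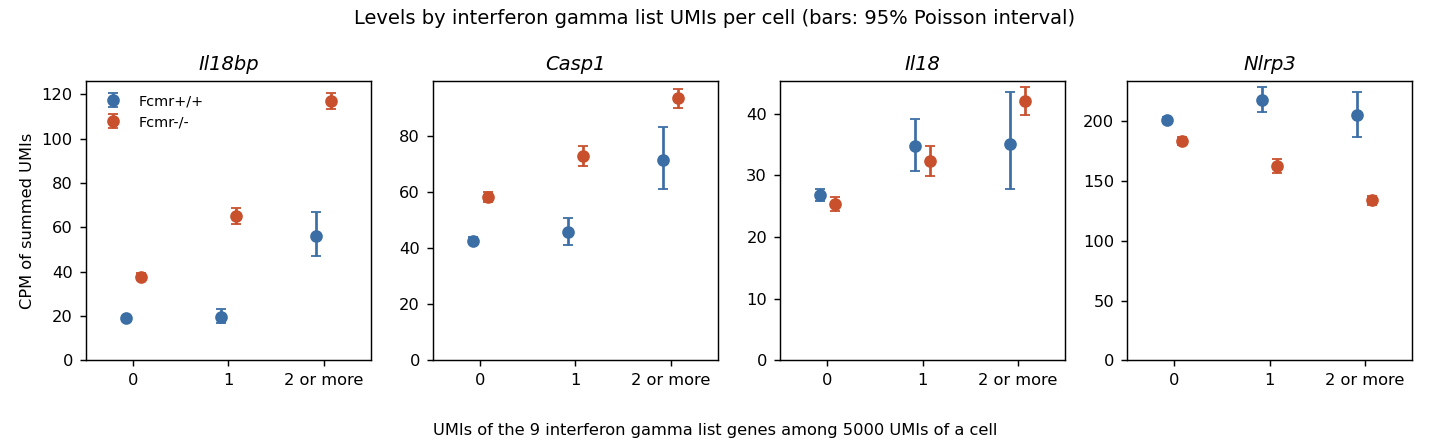
CPM of Il18bp, Casp1, Il18 and Nlrp3 in cells with 0, 1 or 2 or more UMIs of the 9 interferon gamma list genes among 5000 UMIs, by genotype, with 95% Poisson intervals. Il18bp and Casp1 are higher in Fcmr-/- cells in each group, and the Fcmr+/+ group with 2 or more holds 119 cells.

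T or NK cell transcripts also moved with the genotype, and within Fcmr-/- cells they were highest in state 7, at 69.8 CPM, and state 1, at 53.6 CPM. Cells with 2 or more UMIs of that list numbered 42 in the Fcmr+/+ and 82 in the Fcmr-/- library. Without them the log2 ratio over all cells was 1.62 for Il18bp and 0.67 for Casp1, and within state 7, which lost 2 and 11 cells, it was 2.03 for Il18bp. State 1 lost the most, 35 and 50 cells, and there Il18bp went from 0.74 to 0.66 and Casp1 from 0.37 to 0.32.

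Il18 and Il18bp were found in the same thinned cells little more often than their shares give. After thinning, 69 Fcmr+/+ cells held both, 1.14 times (0.89 to 1.44) the number given by the shares within states, and 248 Fcmr-/- cells did, 1.00 times (0.88 to 1.14). Il18 was found in 14.3% of Fcmr-/- cells with Il18bp and in 12.2% of those without. Il18bp and Casp1 were found together in 600 Fcmr-/- cells, 1.15 times (1.06 to 1.24) the number given within states. In Fcmr+/+ cells it was 111, 1.03 times (0.85 to 1.25). All pairs of the members were read. After thinning, the only intervals that did not hold 1 were those of Il18bp with Casp1 and Il18 with Gsdmd, both in Fcmr-/- cells. Il18 and Gsdmd were found together 1.16 times (1.02 to 1.33) the number given within states. Among so many intervals a few can miss 1 by counting error alone, so neither pair is taken as a finding. Across cells, Pearson r of Il18 with Il18bp was 0.01 in the 6352 Fcmr+/+ and 0.03 in the 7999 Fcmr-/- thinned cells. Values so small in sparse counts are no finding.

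The genes whose levels went most like a member across cells, by the lower of the 2 libraries' Pearson r over 5033 genes, were listed for 5 of the members. Itm2b was on the lists of both Il18 and Il18bp, and Nfkbia on those of both Casp4 and Nlrp3. For Il18 they were Ctsc, Ms4a6b, Sepp1, Itm2b and Ms4a6c, with r between 0.18 and 0.25. For Il18bp they were B2m, Itm2b, Ctss, AW112010 and H2-D1, 2 of which, B2m and H2-D1, encode parts of MHC class I. Their r was 0.21 to 0.25 in Fcmr+/+ and 0.31 to 0.46 in Fcmr-/- cells. For Casp1, the list held Pomp, Prdx1, Psmb8, Evl and Ndufa12, at r from 0.11 to 0.26, where Pomp and Psmb8 belong to proteasome assembly and the immunoproteasome. Casp4 went with Klf6, AI607873, Ifi204, Tnfaip3 and Nfkbia, at r from 0.13 to 0.21. For Nlrp3 the values were the highest, with Nfkbia, Cd14, Il1b, Cxcl2 and Ptgs2 between 0.41 and 0.56. The cells of a library share its depth and free RNA. After thinning, all 5 genes of Nlrp3 stayed on its list. Il18 lost Ms4a6c, with r now between 0.09 and 0.15, Il18bp lost AW112010 and H2-D1, with H2-K1, also of MHC class I, among those that came in, Casp4 lost AI607873 and Tnfaip3, and Casp1 lost all but Prdx1.

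RefSeq start sites in GRCm38.p6 were listed for 7 of 8 members, not for Gsdmd. In windows from 250 bases before to 50 bases after each start, none of the 7 held an interferon-stimulated response element written GAAANNGAAA, a gamma-activated site written TTCNNNGAA or a kappa B like site written GGGANNTTCC, searched on both strands. Of 32851 windows of that length, 3.44%, 8.30% and 1.47% held them. The windows of Il18bp, of Aim2 and of the downstream Nlrp3 start lie within the spans of their genes in the GENCODE annotation, which begin upstream of them. They may thus not be the promoters in use, and they are not shown. The wider kappa B consensus, added after the windows had been seen and held by 8.46% of the 32851 windows, matched in Casp4 and at the upstream start of Nlrp3. The 250 bases before the start are shown for these, and for Casp1 and Il18, where nothing matched. They are on the plus strand, and capitals mark the kappa B consensus matches.
Casp4 (chr9:5308599-5308848): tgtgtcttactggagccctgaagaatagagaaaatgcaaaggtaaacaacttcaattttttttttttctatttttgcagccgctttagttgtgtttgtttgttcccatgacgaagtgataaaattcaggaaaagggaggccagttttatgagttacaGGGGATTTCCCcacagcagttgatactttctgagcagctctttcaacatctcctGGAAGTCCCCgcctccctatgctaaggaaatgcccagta
Nlrp3 (chr11:59541319-59541568): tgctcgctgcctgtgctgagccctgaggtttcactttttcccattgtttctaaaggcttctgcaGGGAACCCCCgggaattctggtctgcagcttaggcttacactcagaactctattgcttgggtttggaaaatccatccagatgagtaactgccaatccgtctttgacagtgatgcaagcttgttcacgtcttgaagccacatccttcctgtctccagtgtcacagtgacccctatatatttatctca
Casp1 (chr9:5298267-5298516): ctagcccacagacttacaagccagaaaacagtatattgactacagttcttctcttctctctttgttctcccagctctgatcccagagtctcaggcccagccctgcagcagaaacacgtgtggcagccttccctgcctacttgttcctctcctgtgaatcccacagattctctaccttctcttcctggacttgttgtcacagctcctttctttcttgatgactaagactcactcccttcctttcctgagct
Il18 (chr9:50554450-50554699): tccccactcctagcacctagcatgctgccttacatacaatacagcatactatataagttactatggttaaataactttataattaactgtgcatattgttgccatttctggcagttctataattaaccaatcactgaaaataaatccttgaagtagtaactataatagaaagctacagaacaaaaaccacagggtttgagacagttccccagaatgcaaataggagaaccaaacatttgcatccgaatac
In Casp4 the matches GGGGATTTCC and GGGATTTCCC overlap, starting 93 and 92 bases before the upstream of its listed start sites. GGAAGTCCCC starts 39 bases before that site. The match in Nlrp3, GGGAACCCCC, starts 186 bases before its start. A match of letters is not a bound site, and a window without one says nothing of more distant sequence.

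The other genes of the pathway were read against the same rule. Of a list of 58 genes chosen with earlier results known, 56 were listed in the files and 41 had at least 5 CPM, and 8 of 41 were past 1.5-fold higher in Fcmr-/- cells and 0 lower, beside the 2.40% and 1.69% of all genes. Their median log2 ratio was 0.19. Of the 8, 7 were among the 21 regulators, and the remaining gene was the sensor Zbp1, a detector of Z-form nucleic acids, at 47.0 CPM in Fcmr+/+ and 127 CPM in Fcmr-/- cells, a log2 ratio of 1.41. Guanylate-binding proteins, known for opening pathogen vacuoles to caspase-11, and the GTPase Irgm1 made up most of the rest. Gbp2 was at 21.4 and 139 CPM, a log2 ratio of 2.64, Gbp3 at 10.8 and 33.8 CPM (1.56), Gbp5 at 513 and 1259 UMIs (1.15) and Irgm1 at 20.1 and 45.4 CPM (1.14). Pydc4, of the pyrin domain family, was at 11.5 and 23.8 CPM, and Serpinb9, an inhibitor of granzyme B, at 5.65 and 11.8 CPM. Pydc3, at 5.72 CPM in Fcmr-/- cells, was the 8th.

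None of the 5 measured caspases and gasdermins and none of the 5 IL-1 family genes was past 1.5-fold. Of all genes, 2.40% were past it higher and 1.69% lower, so lists this short would mostly hold none and no result is read from that. Il1b was at 1645 CPM in Fcmr+/+ and 1953 CPM in Fcmr-/- cells, a log2 ratio of 0.25, and its antagonist Il1rn at 314 and 409 CPM, 0.38. The lowest ratios of the list were those of the decoy receptor Il1r2, at 12.3 and 8.79 CPM (-0.44), the NF-kappa B inhibitor Tnfaip3, at 314 and 247 CPM (-0.34), and Ninj1, which ruptures the membrane of dying cells, at 599 and 496 CPM (-0.27). The IL-18 receptor chains Il18r1 and Il18rap had 10 and 156 UMIs in Fcmr+/+ and 25 and 112 UMIs in Fcmr-/- cells, too few for the list. With states weighted equally, Gbp2 had a log2 ratio of 0.96, Serpinb9 0.65 and Zbp1 0.53. Gbp3 was at 0.42, Pydc3 at 0.35, and Gbp5, Irgm1 and Pydc4 at 0.32 each. Of these genes only Gbp2 and Serpinb9 stayed past 1.5-fold by that measure, beside 0.988% of the 8701 genes.

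**Figure D5:**
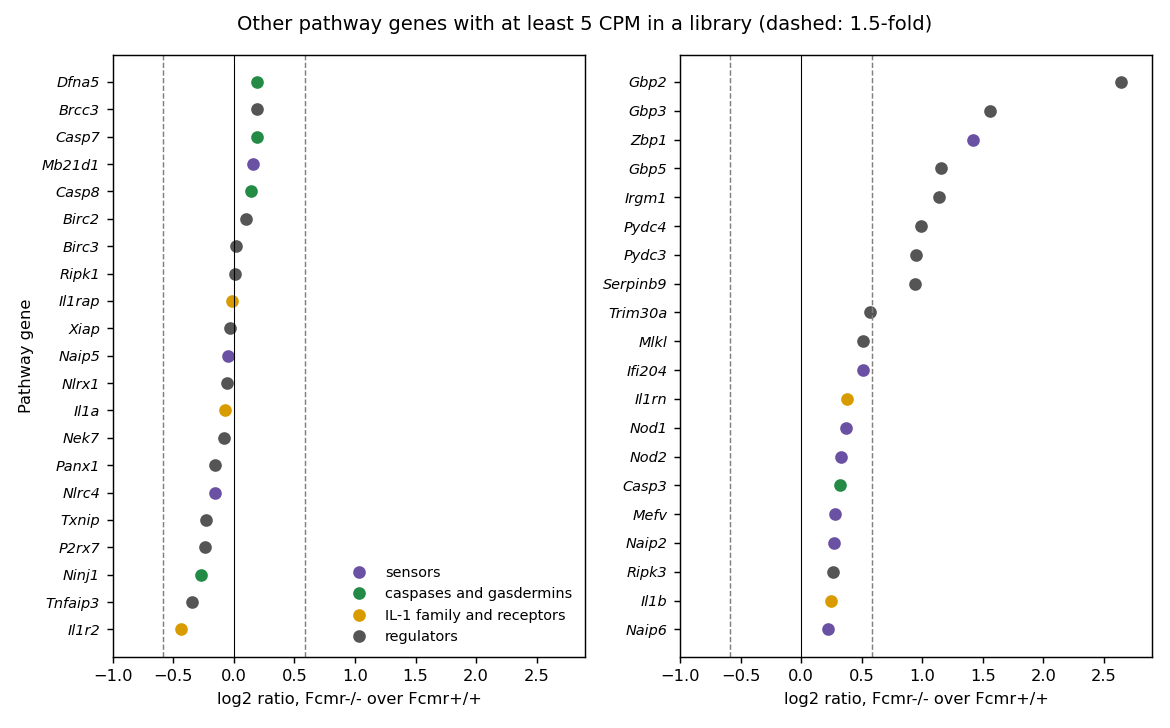
log2 ratio, Fcmr-/- over Fcmr+/+ with 1 CPM added, of the 41 other pathway genes with at least 5 CPM in a library, ordered by value and colored by list, with dashed lines at 1.5-fold. The 8 genes beyond the right line run from Serpinb9 at 0.94 to Gbp2 at 2.64, and none lies beyond the left line.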

How the data were processed

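The authors deposited raw counts of UMIs per gene and cell for each library, made with Cell Ranger, with reads mapped to GRCm38 per the submitters' processing notes. The notes also name Seurat 2.1.0. Here the limits of the study were applied (200 to 7000 genes and no more than 30% mitochondrial UMIs per cell, and a gene seen in 3 cells or more), and no doublet caller was run. The 8 members and all gene lists were chosen with earlier results of these data known. UMIs were summed per library and given as CPM with exact Poisson intervals. Shares have Clopper-Pearson intervals, and log2 ratios (1 CPM added) have exact conditional binomial intervals without the added CPM. PCR duplicates were collapsed by UMI, and intervals cover counting error only. States were clusters (Seurat 5.3.0, R 4.3.3, 10 principal components, resolution 0.8) of both libraries, with genes other than the members. They were called "-like" from at least 3 listed markers among their 30 leading genes. The named genes were all 8 members, pathway genes past 1.5-fold with at least 10 CPM, and the 3 lowest. Il1b, Il1rn, Pydc3 and the IL-18 receptor genes were added after their values were seen. Depth per cell differed, so shares were also taken after thinning. Ratios and their intervals were tested on simulated counts, and joint detection only on simulated independent genes. Thinning was checked on a part of the Fcmr+/+ cells, and shares were not tested. Like genes needed 20 CPM in each library. Positions came from GENCODE and start sites from RefSeq. Alternatives were another scaling, pseudocount, cell filter, clustering, fold and thinning, and leaving out cells by marker list. With 1 library per genotype no p-value is given.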

Additional observations from a re-analysis of the deposited data

Results flagged for a closer look

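In state 6, the C1q-high-like state, the log2 ratio of Il18bp was -0.33 (-0.54 to -0.14), on the other side of 0 from 5 states in which it was past 1.5-fold higher in Fcmr-/- cells. Nlrp3 had a log2 ratio of 0.29 (0.16 to 0.43) in state 8, while in state 4 it was past 1.5-fold lower. For Aim2 the log2 ratio was 0.32 (0.05 to 0.63) in state 6 and -0.82 (-1.38 to -0.29) in state 3, where the Fcmr+/+ value rests on 65 cells. These differences between states were not tested, since each genotype had 1 library.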

How the results depend on the processing

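Over 18 alternatives the sign of the genotype ratio was kept for every member but Aim2, which was 0.03 after thinning. The log2 ratio of Il18bp lay between 0.58 and 1.67 and was past 1.5-fold in 17 of 18 alternatives, that of Casp1 between 0.36 and 0.70 and past it in 16. The count of 2 members became 1 with states weighted equally or at 2-fold, and 0 without states 3, 8 and 9, an alternative chosen after seeing the data. The median log2 ratio over the members was 0.027 with states weighted equally, 0.023 without states 3, 8 and 9 and 0.14 without cells that held melanoma transcripts, the causes of which were not tested. Of pathway genes, 5 instead of 8 were past 1.5-fold among those with at least 20 CPM, since fewer genes were read. At 2-fold the count was also 5. It was 10 at 1.5-fold as means over cells, after thinning, with at most 5000 genes per cell or without dendritic cell list cells. Apart from states weighted equally, no share of all genes is given for these settings, for members or pathway genes. Whether that share moved along with the counts can thus not be told. With states weighted equally, only Gbp2 and Serpinb9 of the 8 stayed past 1.5-fold. Il18 was higher in 3 of 6 states at resolution 0.4, since fewer states were formed, and Il18bp in 6 of 6, in 12 of 13 at resolution 1.2 and in 11 of 11 with genes centered within each library. The ratio of Nlrp3 shrank to -0.08 without cells that held 2 or more UMIs of the dendritic cell list, which takes out 2576 Fcmr+/+ and 2258 Fcmr-/- cells. No paired analysis was possible because each genotype had 1 library and no test was made. Depth limits Il18bp in Fcmr+/+ cells, found in 8.71% of thinned cells, and Aim2 and Il18, found in 9.05% to 12.6%.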
